A study of Mus musculus with 8 samples.

Results

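The genes described here encode the heat shock and DnaJ chaperones, measured in cells labelled as beta cells, together with Hsf1, the transcription factor that controls many of them. They were chosen by name: every symbol that starts with Hspa, Hspb, Hspd, Hspe, Hsph, Hsp90a, Dnaja, Dnajb or Dnajc, and Hsf1, without the endoplasmic reticulum chaperone genes Hspa5, Dnajc3 and Dnajb9. This rule found 71 of the 23366 genes in the deposited table. Of these, 13 belong to the Hsp70 and Hsp110 families, 2 to Hsp90, 2 to the mitochondrial chaperonin, 7 to the small heat shock proteins, 4 to DNAJA, 12 to DNAJB and 27 to DNAJC. A further 3 (Hspb11, Hspbp1 and Hspbap1) match by name but encode no chaperone of these families. The working name of the set, cytosolic chaperones, does not hold for all of its members. For example, Hspa9, Hspd1, Hspe1 and Dnaja3 encode mitochondrial proteins, and Hspa13, Dnajb11, Dnajb14 and Dnajc10 encode proteins of the endoplasmic reticulum.

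The RNA came from cells labelled as primary beta cells, from the pancreas of NOD mice, which were 8 to 10 weeks old and carry an inherited tendency to autoimmune diabetes. Cells were sorted into a population labelled top and one labelled bottom, with 4 libraries each, and the labels give no treatment, transgene or sort gate. Batch 1 holds top 1, top 2, bottom 1 and bottom 2, batch 2 holds top 3, top 4, bottom 3 and bottom 4, and each library was amplified from about 1000 cells. Whether each library had its own mice is not in the labels, so p-values refer only to the spread over the libraries at hand, and that spread may be technical.

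Hsp70 proteins bind unfolded stretches of other proteins and release them in cycles driven by ATP. DnaJ proteins bring clients to Hsp70 and start its ATPase, Hsp110 proteins exchange its nucleotide, Hsp90 finishes the folding of kinases and receptors, the chaperonin Hspd1 with its lid Hspe1 folds proteins in the mitochondrial matrix, and small heat shock proteins hold aggregating proteins without ATP. Under heat or proteotoxic stress Hsf1 forms trimers that bind heat shock elements, which are inverted repeats of the bases GAA, and switches on the inducible members. Beta cells make large amounts of proinsulin, and the tissue dissociation that precedes cell sorting is known to induce both heat shock and immediate early genes.

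Total expected counts ran from 6657639 to 11262368 per library, and Pearson's r between libraries of log2(CPM + 1), where CPM is a gene's count scaled to a common library total with TMM factors, lay between 0.583 and 0.862. The label of beta cells was checked against marker genes, given here as summed CPM, and the markers of bottom go against it. The beta cell list summed to between 344000 and 505600 in top and between 38730 and 81370 in bottom, with 3 of 9 tested genes lower in bottom and Mafa at 0 in every library. Delta cell markers summed to between 2973 and 5503 in top and between 33480 and 57820 in bottom (3 of 4 tested genes rose), and pancreatic polypeptide cell markers to between 1196 and 2356 in top and between 11340 and 91990 in bottom (2 of 2 rose). Alpha cell markers overlapped, at 65550 to 138400 in top and 29160 to 142500 in bottom. In bottom 1 the sums of pancreatic polypeptide (77080), delta (52760) and alpha cell markers (51300) each exceeded that of beta cell markers (38730), and in bottom 2 those of alpha (142500) and pancreatic polypeptide cell markers (91990) exceeded it (81370). Insulin transcripts, from Ins1 and Ins2, took 26.6% to 40.1% of counts in top and 2.75% to 7.16% in bottom. Bottom thus held transcripts of several endocrine cell types, and its chaperone values cannot be assigned to beta cells. Top also held alpha, delta and pancreatic polypeptide cell markers, at the sums given above. Its chaperone values cannot be assigned to beta cells alone either. Fibroblast and stellate markers summed to between 0.251 and 12.4 in top and to 3.28, 180, 191 and 769 in bottom 1 to 4, with 2 of 3 tested genes higher. In bulk libraries fewer cells of a type and less RNA per cell cannot be told apart, and the part of these markers in the chaperone values below was not tested.

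Of the 71 genes, 59 had enough counts to be tested. Among the 12 that were not, Dnajb8, Dnajc5b, Dnajc5g and Hspb9 had 0 counts in every library, where 3 counts over the 8 libraries would be 0.0432 CPM. The other 8 (Dnajb13, Dnajb5, Dnajb7, Hspa12b, Hspa1l, Hspb2, Hspb3 and Hspb7) had between 1 and 140 counts in all. The first comparison asks which chaperone transcripts differ between bottom and top, with the batch as a covariate in edgeR's quasi-likelihood test and Benjamini-Hochberg adjustment over 11721 genes. Here 1 of 59 members was called higher in bottom at an adjusted p under 0.05, Dnajb1, and 0 were called lower. Over all genes tested, 0.282% were called higher and 0.162% lower. At an unadjusted p under 0.05, 5 members (8.47%) were higher and 4 (6.78%) lower, against 5.62% and 4.63% of all genes. The log2 fold change, or log2 difference, is that of bottom over top and was positive for 28 members (47.5%, against 50.1% of all genes) and negative for 31, with a median of -0.059 beside 0.0033 for all genes. DESeq2 called 3 members higher (Dnajb1, Hspb1 and Dnajc22) and 3 lower (Hspb6, Dnajc24 and Hspa12a), where it called 3.14% and 1.89% of all genes, and limma-trend called Dnajb1 higher and Hspb6 lower, where it called 0.665% and 0.503%. Without the low-count filter edgeR called these same 2 genes in the same directions, against 0.782% of all genes higher and 0.391% lower. From batch 1 alone it called 0 members (against 0.0166% of genes higher) and from batch 2 alone also 0 (against 0.0163%).

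**Figure D1:**
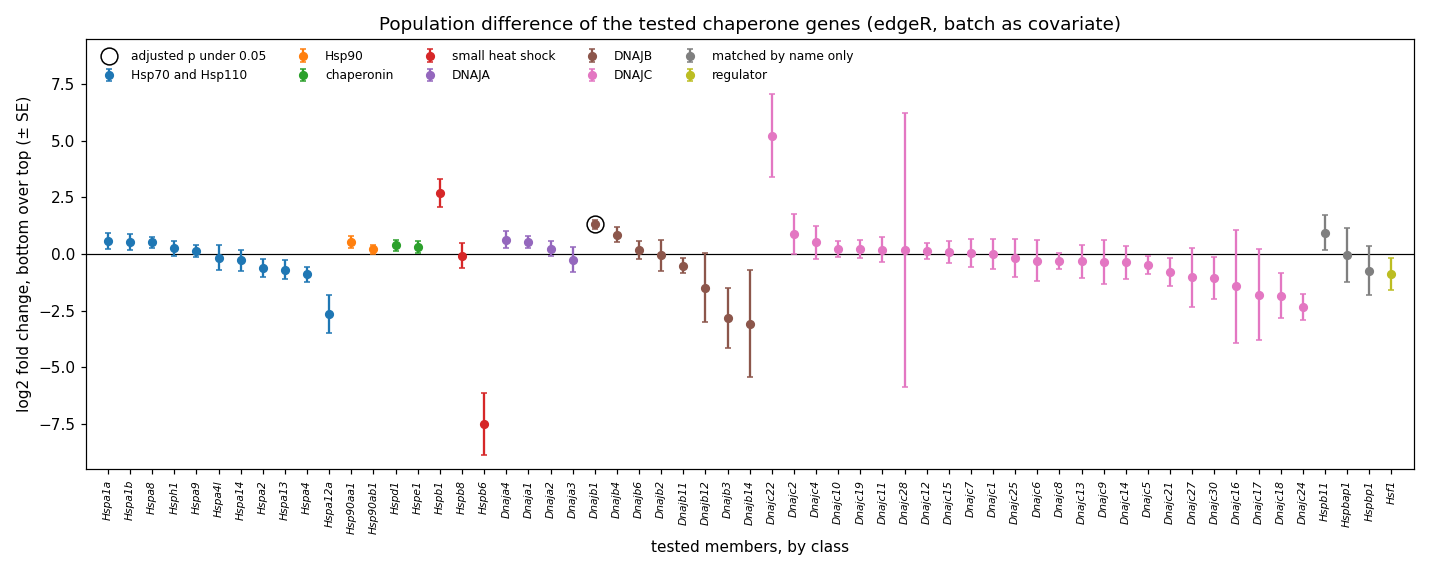
Log2 fold change, bottom over top, with a standard error derived from the F value of edgeR's test, for the 59 tested members grouped by class on the horizontal axis. Dnajb1, circled, is the 1 member past an adjusted p of 0.05, and members with wide bars such as Dnajc28 and Dnajb14 have differences that are not the same in both batches.

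Dnajb1 encodes the main stress-inducible DnaJ partner of cytosolic Hsp70. Its level in CPM was 202, 194, 401 and 453 in top 1 to 4 and 486, 426, 1279 and 1039 in bottom 1 to 4. Within each batch both bottom libraries lay above both top libraries, while across batches bottom 2 lay below top 4, so the populations overlapped. The mean was 312 ± 134 CPM in top and 807 ± 419 CPM in bottom (SD, n = 4). The fitted difference was 1.32 on the log2 scale (SE 0.20, edgeR adjusted p = 0.0356), which is 2.50-fold. The bottom mean was 2.30 times the top mean in batch 1 and 2.71 times in batch 2. Taken within a batch from a fit that shares its spread over all 8 libraries, the log2 fold change was 1.20 in batch 1 (edgeR adjusted p = 0.209) and 1.44 in batch 2 (edgeR adjusted p = 0.216). The call was lost when any of the 4 top libraries, bottom 2, bottom 3 or bottom 4 was left out, and was kept without bottom 1. The log2 fold change moved little in these fits, from 1.23 to 1.40, with edgeR adjusted p from 0.0370 to 0.149. Fits that lost the call also called fewer genes higher over all genes, between 0.0242% and 0.147%, against 0.282% with every library. Over all alternatives the adjusted p ran from 2.78e-06 with DESeq2 to 0.696 with a replicate block, which groups libraries by batch and title number. Only top 1 with bottom 1 and top 3 with bottom 3 share a block, and that fit called 0% of all genes, so its value says little about Dnajb1.

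The 250 bases before the Dnajb1 start in the RefSeq promoter table are shown because it is the called gene. They lie at chr8:83607925-83608174 on the plus strand of GRCm38.p6, a build other than the mm9 of the deposited counts, and the capitals mark a CCAAT box on the opposite strand (ATTGG), a common promoter motif.
Dnajb1: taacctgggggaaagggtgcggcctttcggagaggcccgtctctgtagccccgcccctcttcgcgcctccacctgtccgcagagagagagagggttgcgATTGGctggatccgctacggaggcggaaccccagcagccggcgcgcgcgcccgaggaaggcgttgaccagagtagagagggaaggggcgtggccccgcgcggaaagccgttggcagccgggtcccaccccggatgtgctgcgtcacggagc
No heat shock element of the forms searched below was found within the 300 bases around this start, 250 before it and 50 after it, which says nothing about elements elsewhere or of other spellings.

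Among the other DNAJB genes, 8 of 12 were tested and none but Dnajb1 was called. Dnajb4, a cytosolic relative of Dnajb1, stood at 76.4, 41.7, 163.5 and 103.5 CPM in top and at 155, 106, 232 and 161 CPM in bottom. Its populations overlapped, and the log2 fold change was 0.85 (SE 0.33, edgeR adjusted p = 0.402). Dnajb14, a DnaJ protein of the endoplasmic reticulum membrane, had 8.49 and 3.89 CPM in top 1 and 2 against 0 in bottom 1 and 2. In batch 2 the populations were interleaved, with 0.742 and 10.6 CPM in top 3 and 4 and 8.85 and 3.98 CPM in bottom 3 and 4. The Dnajb14 log2 difference of -3.07 (SE 2.36, edgeR adjusted p = 0.755) does not describe a difference shared by both batches. Dnajb3 was low throughout, between 0.144 and 2.84 CPM in top and between 0 and 1.69 CPM in bottom, with a log2 difference of -2.80 (SE 1.32, edgeR adjusted p = 0.520).

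All 4 DNAJA genes were tested and none was called. Dnaja1, an abundant partner of cytosolic Hsp70, had 615, 492, 1580 and 804 CPM in top and 845, 641, 1945 and 1830 CPM in bottom. Both batch 2 bottom libraries lay above every other library, but top 3 lay above bottom 1 and bottom 2, and the log2 fold change of 0.54 (SE 0.25) had an edgeR adjusted p of 0.505. Dnaja2, another cytosolic partner of Hsp70, had a mean of 78.9 ± 24.3 CPM in top and 91.0 ± 23.4 CPM in bottom. The mitochondrial Dnaja3 had 40.3 ± 14.0 and 36.4 ± 25.2 CPM (SD, n = 4 each). Neither mean differed by more than the spread between libraries.

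The Hsp70 family holds the constitutive cytosolic chaperone Hspa8 and the stress-inducible pair Hspa1a and Hspa1b. Hspa8 stood at 1669, 2395, 3902 and 2305 CPM in top and at 3208, 3446, 3963 and 3811 CPM in bottom. Bottom libraries lay close together at 3607 ± 343 CPM (SD, n = 4), and only top 3 reached their range. The log2 fold change of 0.52 (SE 0.23) did not pass adjustment (edgeR adjusted p = 0.468). Hspa1a had 122, 128, 201 and 242 CPM in top and 81.9, 164, 601 and 405.5 CPM in bottom. Hspa1b had 191, 192, 274 and 257 CPM in top and 180, 141, 789 and 529 CPM in bottom. For both genes the libraries bottom 3 and bottom 4 were the highest of all 8, while bottom 1 lay below every top library.

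Reads from the coding bases of Hspa1a and Hspa1b can hardly be told apart, so the separate levels of these genes are uncertain. Their coding sequences of 1923 and 1926 bases match in 99.6% of aligned bases, and RSEM divides shared reads between them. Untranslated bases were not compared. Summed, the pair had a log2 difference of 0.55 (SE 0.32, edgeR adjusted p = 0.641), beside 0.58 for Hspa1a (edgeR adjusted p = 0.654) and 0.53 for Hspa1b (edgeR adjusted p = 0.701). Their upstream sequences are shown to let the copies be compared. They come from RefSeq GRCm38.p6, minus strand, at chr17:34972157-34972406 for Hspa1a and chr17:34959239-34959488 for Hspa1b, and 3 of the 250 bases differ. Capitals mark a heat shock element of 2 units, GAANNTTC, from 104 to 97 bases before the start in both.
Hspa1a: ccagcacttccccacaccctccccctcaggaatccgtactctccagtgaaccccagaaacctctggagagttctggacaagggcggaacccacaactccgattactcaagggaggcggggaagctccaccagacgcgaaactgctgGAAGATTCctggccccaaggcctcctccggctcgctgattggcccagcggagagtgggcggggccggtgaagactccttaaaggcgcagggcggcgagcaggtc
Hspa1b: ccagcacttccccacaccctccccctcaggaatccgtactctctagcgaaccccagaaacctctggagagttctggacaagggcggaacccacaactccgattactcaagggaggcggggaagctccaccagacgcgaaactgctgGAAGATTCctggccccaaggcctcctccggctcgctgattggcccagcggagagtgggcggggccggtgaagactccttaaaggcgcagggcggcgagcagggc

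The other Hsp70 and Hsp110 genes did not pass the test either. Hspa4, an Hsp110 type nucleotide exchange factor, had 118.5, 101, 102 and 87.5 CPM in top and 55.3, 36.0, 80.2 and 53.3 CPM in bottom, so that every bottom library lay below every top library. Its log2 fold change was -0.89 (SE 0.33, edgeR adjusted p = 0.371). Hspa12a, a distant relative of Hsp70, had 29.5, 36.5, 28.7 and 110 CPM in top and 15.9, 3.55, 1.79 and 10.2 CPM in bottom, again without overlap, with a log2 difference of -2.64 (SE 0.83, edgeR adjusted p = 0.279). Its top mean of 51.2 CPM was 31.6 CPM without top 4. Groups did not overlap in 4 of 59 members with bottom below (6.78%, against 3.91% of all genes) and in 0 with bottom above (against 3.31% of all genes). Hsph1, the inducible Hsp110, had 237, 203, 544 and 512 CPM in top and 128, 206, 1189 and 778.5 CPM in bottom. Its batch 2 libraries were the 4 highest in both populations, and the log2 fold change between populations was 0.25 (SE 0.33, edgeR adjusted p = 0.883). The mitochondrial Hspa9 differed little, with 139 ± 27.0 CPM in top and 154 ± 18.2 CPM in bottom (SD, n = 4), a log2 difference of 0.15 (SE 0.26, edgeR adjusted p = 0.908).

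**Figure D2:**
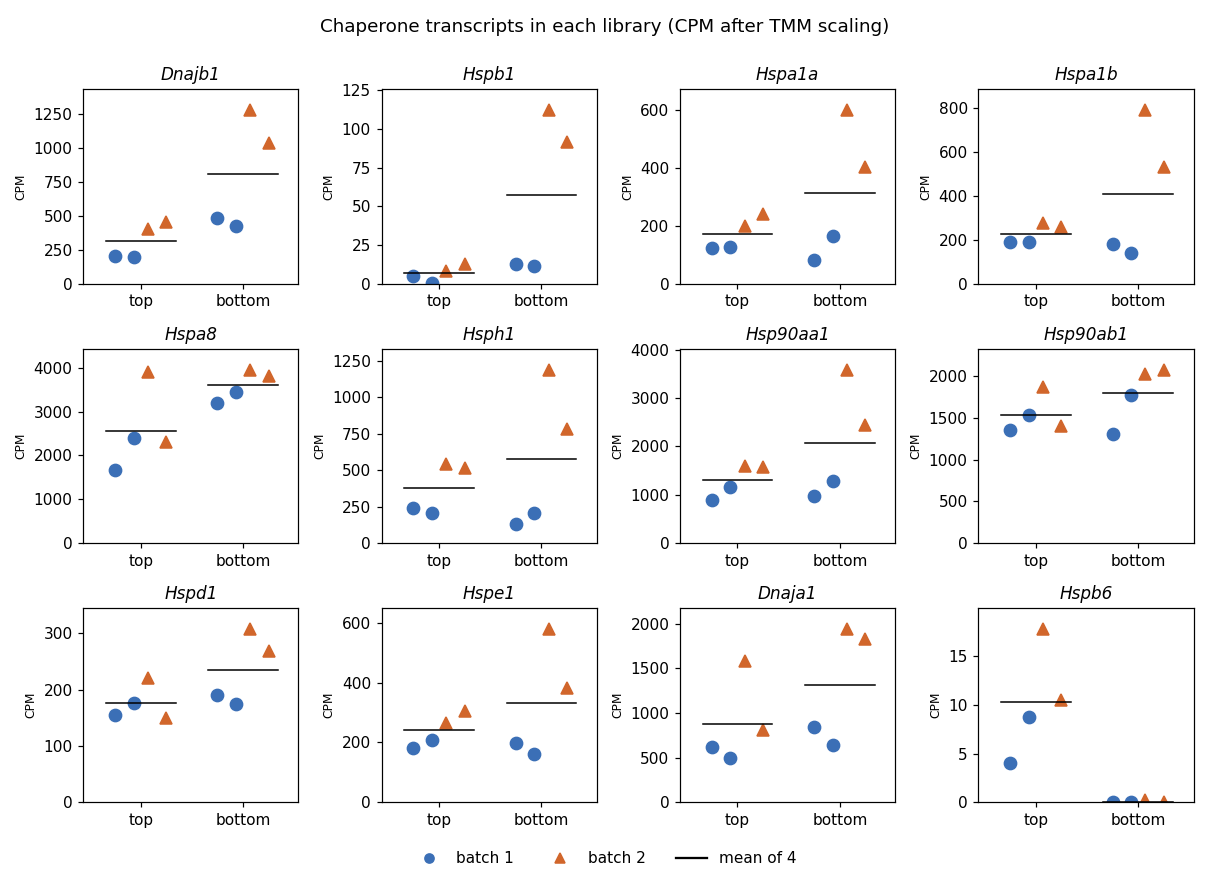
CPM after TMM scaling of chaperone genes in each library, 1 panel a gene with its own axis from 0, with circles for batch 1, triangles for batch 2 and a line at the mean of 4 libraries. In the Dnajb1 panel each batch has both bottom points above both top points, and in the Hspa1a, Hspa1b and Hsph1 panels the high bottom points are the triangles.

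Hsp90 is encoded in the cytosol by the inducible Hsp90aa1 and the constitutive Hsp90ab1. Hsp90aa1 had 892, 1155, 1591 and 1575 CPM in top and 969, 1284, 3592 and 2448 CPM in bottom. Bottom 3 and bottom 4 stood above the rest and the batch 1 populations were interleaved, with a log2 difference of 0.54 (SE 0.25, edgeR adjusted p = 0.504). Hsp90ab1 was steadier at 1360, 1535, 1867 and 1397 CPM in top and 1304, 1778, 2032 and 2080 CPM in bottom, with a log2 difference of 0.21 (SE 0.20, edgeR adjusted p = 0.811).

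The chaperonin genes Hspd1 and Hspe1 start back to back, 216 bases apart, on opposite strands. Hspd1 had 155, 176, 222 and 150 CPM in top and 191, 175, 308 and 268 CPM in bottom, a log2 difference of 0.39 (SE 0.25, edgeR adjusted p = 0.676). Hspe1 had 182, 208, 266 and 306 CPM in top and 197, 162, 580 and 382 CPM in bottom, a log2 difference of 0.32 (SE 0.27, edgeR adjusted p = 0.790). In both genes bottom 3 and bottom 4 were the highest libraries. The window between them holds a heat shock element of more than 2 units, which is shown from both strands because both starts share it. It lies at chr1:55088053-55088082 of GRCm38.p6 (RefSeq), on the plus strand for Hspe1 and the minus strand for Hspd1, and the capitals mark overlapping matches to GAANNTTCNNGAA or its reverse TTCNNGAANNTTC. The matches span bases 89 to 72 before the Hspe1 start and 144 to 127 before the Hspd1 start, with the start base counted as 0. A GENCODE transcript of Hspd1 with a longer 5′ exon covers the same bases. The third sequence is the corresponding match of Hsph1, at chr5:149636287-149636316 on the minus strand, 36 to 48 bases after the start.
Hspe1: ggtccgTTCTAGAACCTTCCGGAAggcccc
Hspd1: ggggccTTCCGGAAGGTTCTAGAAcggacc
Hsph1: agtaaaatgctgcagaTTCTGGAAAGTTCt

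Promoter windows were found for 56 of the 71 members, and Hsp90aa1, Hsp90ab1, Hspa8, Hspa9 and Hsf1 were among the 15 without one. The 3-unit spelling GAANNTTCNNGAA, searched on both strands, occurred in the windows of 4 of 56 members (7.14%): Dnajb6, Hspd1, Hspe1 and Hsph1. It occurred in 0.662% of all 27025 genes and 0.603% of all 32851 windows of that length. The 2-unit spelling GAANNTTC or TTCNNGAA, which every 3-unit match also contains, occurred in 16 of 56 members (28.6%), against 16.97% of all genes. CCAAT or ATTGG occurred in 21 of 56 (37.5%), against 41.1% of all genes. A match is a string of letters and not a measured binding site.

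Of the 7 small heat shock genes 3 were tested, and 0 were called by edgeR. Hspb1, a stress-inducible small heat shock protein of many tissues, had 4.89, 0.753, 8.41 and 12.5 CPM in top and 12.5, 11.8, 112 and 91.8 CPM in bottom. Both batch 2 bottom libraries lay far above the other 6, and those of batch 1 lay above top 1 and top 2 but just below top 4. The log2 fold change was 2.71 (SE 0.63, edgeR adjusted p = 0.129). Over the alternatives tried, the adjusted p ran from 0.000274 with DESeq2 to 0.819 with the replicate block. Hspb6, a small heat shock protein best known from muscle, went the other way, with 4.03, 8.79, 17.8 and 10.5 CPM in top and 0, 0, 0.211 and 0 CPM in bottom. Bottom held 2 counts in all against 308 in top, a ratio of 211 after scaling to the TMM-adjusted library sizes (95% exact binomial interval 57.9 to 1750, counting error only). Its fitted log2 fold change of -7.50 (SE 1.36) missed the threshold in edgeR (adjusted p = 0.0595) and passed it in DESeq2 (adjusted p = 6.70e-06) and limma-trend (adjusted p = 0.0194), with 0.744 as the highest value over the alternatives. Hspb8, which works with Bag3 in clearing aggregates, had 27.5 ± 12.7 CPM in top and 26.0 ± 10.3 CPM in bottom (SD, n = 4).

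The upstream bases of Hspb1 are shown because they hold 2 matches to GAANNTTC, in capitals, between 117 and 90 bases before the start. They lie at chr5:135887669-135887918 on the plus strand (RefSeq, GRCm38.p6).
Hspb1: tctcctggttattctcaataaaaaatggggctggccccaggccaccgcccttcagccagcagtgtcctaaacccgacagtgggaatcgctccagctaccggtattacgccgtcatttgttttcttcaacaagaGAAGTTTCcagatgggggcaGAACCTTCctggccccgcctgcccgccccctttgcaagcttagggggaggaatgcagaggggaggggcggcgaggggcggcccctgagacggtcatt

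DNAJC proteins share only the J domain and do many different jobs. Of 27 genes 25 were tested and 0 were called by edgeR, with 11 positive and 14 negative log2 fold changes. At an unadjusted p under 0.05 only Dnajc22 was higher and only Dnajc24 lower, both of which DESeq2 called. Dnajc24, which acts in making diphthamide on elongation factor 2, had 49.5, 69.9, 56.9 and 69.7 CPM in top and 6.01, 20.0, 4.85 and 18.0 CPM in bottom. Every bottom library lay below every top library in both batches, and the log2 fold change was -2.33 (SE 0.57, edgeR adjusted p = 0.153, with a range over the alternatives from 0.00269 with DESeq2 to 0.581). Dnajc18 had 70.6, 42.2, 51.4 and 3.65 CPM in top and 2.51, 11.5, 7.69 and 26.9 CPM in bottom. Top 4 stood among the bottom values, and the log2 fold change of -1.84 (SE 0.99) had an edgeR adjusted p of 0.601. Dnajc22 had 2.30, 1.76, 0 and 0 CPM in top and 92.2, 0.748, 6.64 and 0 CPM in bottom. Its bottom mean of 24.9 CPM was 2.46 CPM without bottom 1, and the log2 fold change was 5.23 (SE 1.84, edgeR adjusted p = 0.338). Intestinal epithelial markers were also highest in bottom 1, at a summed 32030 CPM, and stood at 7514, 44.2 and 21.4 CPM in bottom 2 to 4 and between 63.8 and 1995 CPM in top, and their part in the Dnajc22 value was not tested. Dnajc2, a ribosome-associated chaperone, had 12.1 ± 6.56 CPM in top and 23.3 ± 22.8 CPM in bottom (SD, n = 4, log2 fold change 0.90, SE 0.89, edgeR adjusted p = 0.823). Leaving out bottom 3 brought the bottom mean to 12.3 CPM.

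Hsf1 itself had 15.2, 18.1, 10.5 and 30.01 CPM in top and 10.7, 18.9, 9.59 and 4.08 CPM in bottom. The populations overlapped, with a log2 difference of -0.87 (SE 0.71, edgeR adjusted p = 0.779). The activity of this factor is set largely after translation, which transcript levels do not measure. The 3 genes matched by name only were also not called: Hspb11, an intraflagellar transport protein, had a log2 difference of 0.94 (SE 0.77, edgeR adjusted p = 0.779), and the values of Hspbp1, an Hsp70 nucleotide exchange factor, and Hspbap1 were -0.74 and -0.05.

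**Figure D3:**
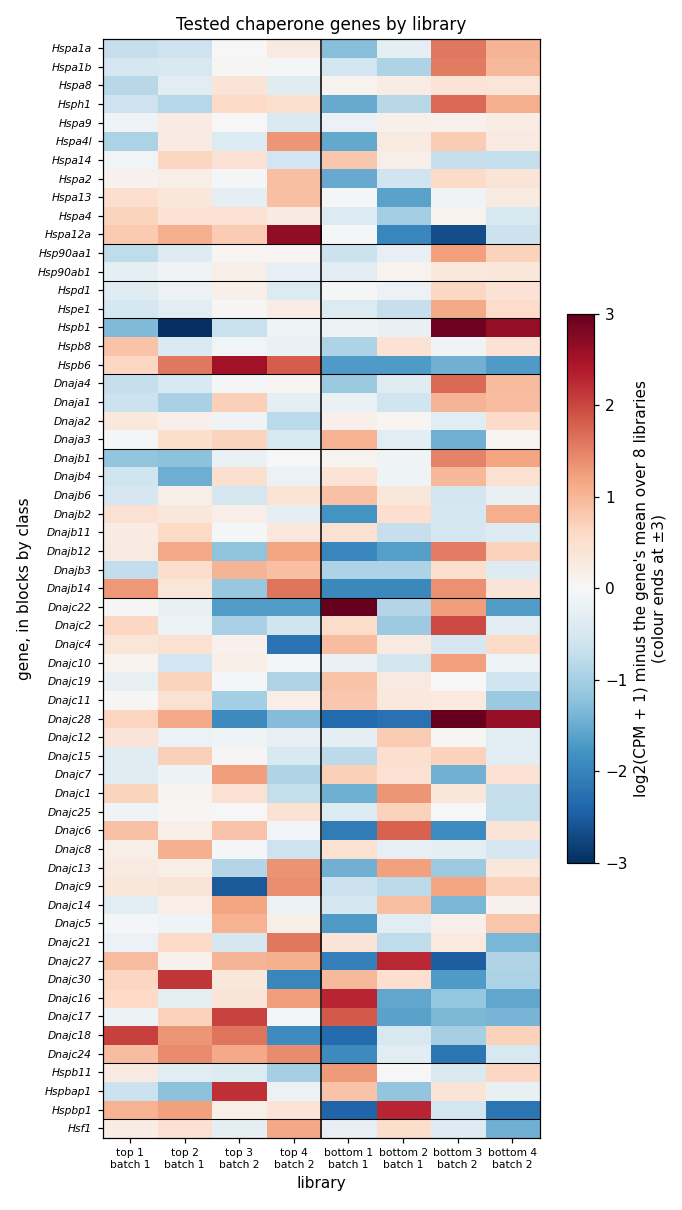
Level of each tested member in each library as log2(CPM + 1) minus the gene's mean over the 8 libraries, in blocks by class, with colour ending at 3 in each direction. Hspa1a, Hspa1b, Hsph1, Dnaja4, Hsp90aa1 and Hspe1 are above their means in bottom 3 and bottom 4, and Hspb6 is above its mean in every top library.

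The second comparison asks how far the labelled batches differ, since chaperone transcripts respond to handling. Batch 2 against batch 1, with the population as a covariate, edgeR called 0 of 59 members higher and 0 lower, and over all genes 0% higher and 0.00853% lower. At an unadjusted p under 0.05, 12 members (20.3%) were higher in batch 2, against 3.85% of all genes, and 2 (3.39%, Dnajc22 and Dnajc30) lower, against 4.56%. DESeq2 called 8 members higher (13.6%, against 1.17% of all genes), namely Dnaja1, Dnaja4, Dnajb1, Hsp90aa1, Hspa1a, Hspa1b, Hspb1 and Hsph1, and 0 lower (against 1.83%), and limma-trend called 0. Without the low-count filter edgeR called Dnaja1, Dnajb1 and Hsph1 higher and 0 members lower, against 0.19% and 0.667% of all genes. The batch log2 fold change was positive for 32 members (54.2%, against 49.6% of all genes). Hsph1 had a batch log2 value of 1.91 (SE 0.34, edgeR adjusted p = 0.164) and Dnajb1 one of 1.23 (SE 0.20, edgeR adjusted p = 0.163). Hspb1 had 2.50 (SE 0.63), Hspa1a 1.43 (SE 0.35) and Hsp90aa1 1.03 (SE 0.25), each with an edgeR adjusted p of 0.291. The largest batch values in size among tested members were -4.51 for Dnajc22, 3.13 for Dnajb14 and 2.99 for Dnajb3, none of which passed adjustment. For Dnajc22 that value goes with 1 library, since bottom 1 had 92.2 CPM and the other libraries at most 6.64 CPM. What was handled separately in the batches is not stated in the labels. Summed immediate early and dissociation genes stood at 4327 and 3971 CPM in top 1 and 2, 7132 and 7116 in top 3 and 4, 7548 and 9534 in bottom 1 and 2, and 9834 and 10410 in bottom 3 and 4, with 0 of 12 genes called between the populations by edgeR. Their part in the chaperone values was not tested.

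The third comparison asks whether the difference between bottom and top itself differs between batches. The interaction of batch and population was called by edgeR for 0 members in either direction, as for 0% of all genes. At an unadjusted p under 0.05, 6 members (10.2%, against 3.81% of all genes) had a more positive difference in batch 2, Dnaja4, Dnajb12, Dnajb14, Dnajc28, Hspa1b and Hsph1, and 0 a more negative one (against 3.74%). DESeq2 called 1 member higher (Dnajc28, against 0.674% of all genes) and 0 lower (against 0.93%), and limma-trend 0. With all genes kept, edgeR called Dnajc28 (against 0.0632% of genes higher and 0.345% lower). The interaction was positive for 33 members (55.9%, against 50.5% of all genes). For Hspa1b the interaction was 1.57 on the log2 scale (SE 0.46, edgeR adjusted p = 0.505), with -0.25 in batch 1 and 1.31 in batch 2. For Hsph1 it was 1.30 (SE 0.50, edgeR adjusted p = 0.604), with -0.40 in batch 1 and 0.90 in batch 2. The batch 1 log2 fold change was also below 0, against a positive value over all libraries, for Hspa1a (-0.03), Hspe1 (-0.12), Hspa9 (-0.08), Dnaja2 (-0.14), Dnaja4 (-0.12), Dnajc2 (-0.35), Dnajc10 (-0.18), Dnajc15 (-0.28) and Dnajc28 (-5.87). Without bottom 3 the value of Hsph1 was -0.0098 over all remaining libraries. Dnajc28 had 7.77 and 11.3 CPM in top 1 and 2 against 0.109 and 0.187 CPM in bottom 1 and 2, and 0.495 and 1.27 CPM in top 3 and 4 against 57.7 and 33.2 CPM in bottom 3 and 4. Its differences were thus large and opposite, and its edgeR interaction of 11.54 (SE 1.66) had an adjusted p of 0.499.

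**Figure D4:**
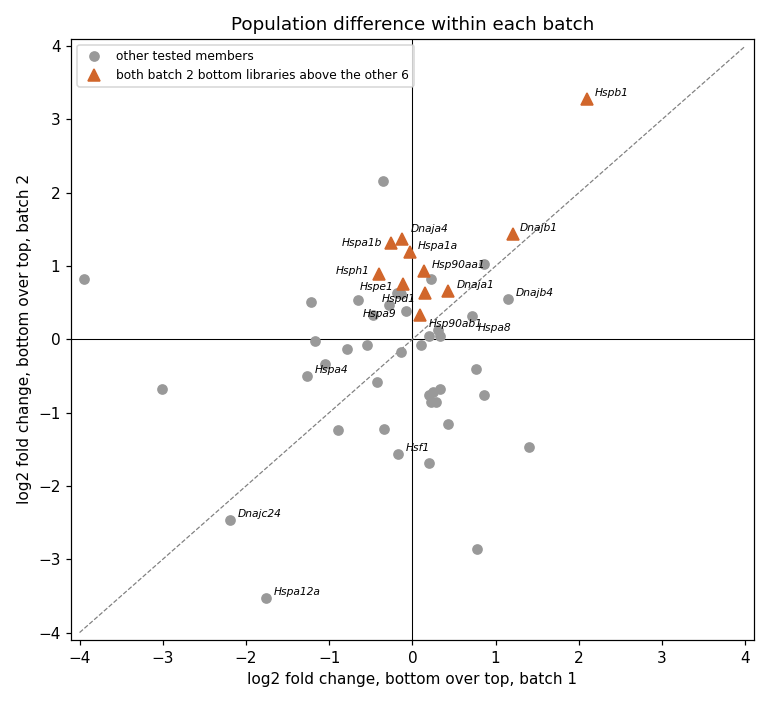
Log2 fold change, bottom over top, within batch 1 on the horizontal axis and within batch 2 on the vertical axis for 52 of the 59 tested members, with 7 beyond the axis limit of 4 in either direction. Triangles mark members whose batch 2 bottom libraries both lie above the other 6 libraries, and Hspa1b, Hsph1 and Hspe1 lie left of 0 on the horizontal axis and above 0 on the vertical one.

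A common order of libraries recurred among these genes, which was noticed after the values had been seen and is a description with no test. Both batch 2 bottom libraries lay above the other 6 libraries in 12 of 59 members (20.3%), against 5.99% of all genes tested. The 12 were Dnaja1, Dnaja4, Dnajb1, Dnajc28, Hsp90aa1, Hsp90ab1, Hspa1a, Hspa1b, Hspb1, Hspd1, Hspe1 and Hsph1. The ratio of the batch 2 bottom mean to the batch 2 top mean was 2.59 for Dnaja4, 2.48 for Hspa1b, 2.28 for Hspa1a, 1.91 for Hsp90aa1, 1.86 for Hsph1, 1.68 for Hspe1, 1.58 for Dnaja1, 1.55 for Hspd1 and 1.26 for Hsp90ab1. In batch 1 the same ratio lay between 0.759 for Hsph1 and 1.34 for Dnaja1 among these 9 genes, so that Dnajb1 (2.30) and Hspb1 (4.29) were the members of the 12 whose bottom mean was also more than 1.5 times the top mean in batch 1. Of the 12, 10 had a promoter window. The 2-unit heat shock element was in 8 of them, against 28.6% of all members with a window and 16.97% of all genes, and the 3-unit one in 3, against 7.14% and 0.662%. These 10 were picked by their values and are themselves counted within the 28.6% and 7.14%, so the shares are a description and test nothing. Members outside the 12 with the 2-unit element were Dnajb4, Dnajb6, Dnajc10, Dnajc27, Dnajc5g, Hspb3, Hspb6 and Hspb8. The 10 are also not independent, since Hspd1 and Hspe1 hold the same element and the upstream bases of Hspa1a and Hspa1b are 98.8% identical.

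Some other summed markers had their highest values in the same libraries, bottom 3 and bottom 4, and others did not. Alpha, delta, pancreatic polypeptide, acinar and intestinal epithelial markers were lower in bottom 3 and bottom 4 than in bottom 1 and bottom 2. Endothelial markers stood at 36.2 and 248 CPM there and between 0.124 and 16.4 CPM in the other 6 libraries, with 0 of 1 tested genes called. Fibroblast and stellate markers stood at 191 and 769 CPM against at most 180 CPM, and duct markers at 786 and 400 CPM against at most 388.5 CPM. The immediate early and dissociation genes given above were also highest there, at 9834 and 10410 CPM, but bottom 2 was close at 9534 CPM. Serpinh1, the collagen chaperone of the endoplasmic reticulum, was picked from the co-chaperone list given below after its values were seen. It had 23.4 and 30.9 CPM there and between 0.765 and 7.38 CPM in the other libraries. EdgeR did not call it between populations (edgeR adjusted p = 0.639) or between batches (edgeR adjusted p = 0.7075). The part of these transcripts in the chaperone values was not tested.

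The 71 genes together took 0.888% ± 0.208 of each top library and 1.59% ± 0.766 of each bottom library (SD, n = 4). In summed CPM they stood at 7681, 8898, 13068 and 10281 in top 1 to 4 and at 9525, 10369, 19089 and 15910 in bottom 1 to 4. Bottom 3 and bottom 4 were the highest and top 3 lay above bottom 1 and bottom 2. The ratio of the bottom to the top mean was 1.38, or 1.20 in batch 1 and 1.50 in batch 2, and no test was made of this sum. Without the islet hormone genes, which took up a larger share of the counts in top, the members made up 1.60% of the remaining counts in top and 2.05% in bottom, with a ratio of 0.988 in batch 1 and 1.50 in batch 2.

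**Figure D5:**
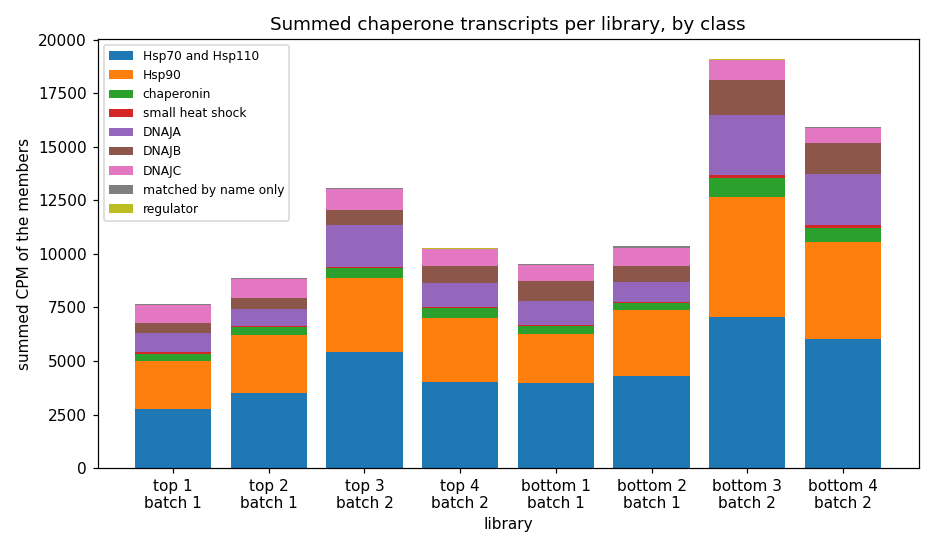
Summed CPM of the 71 genes in each library, stacked by class, with the axis starting at 0. Bottom 3 and bottom 4 reach 19089 and 15910 CPM, the highest of the 8 libraries, and the Hsp70 and Hsp90 classes make up most of each bar.

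The other genes of the pathway were described from a list of 52 co-chaperones and chaperonin subunits outside the naming rule, of which 47 were tested. Between populations edgeR called 0 higher and 0 lower, with 1 higher (2.13%, against 5.62% of all genes) and 1 lower (2.13%, against 4.63%) at an unadjusted p under 0.05. DESeq2 called 1 higher (Bag3, 2.13%, against 3.14% of all genes) and limma-trend 0. Each of these shares of 2.13% is 1 gene. With RLE scaling 6.38% were higher and 2.13% lower at an unadjusted edgeR p under 0.05, against 6.09% and 4.29% of all genes. Their median log2 fold change was -0.025, beside 0.0033 for all genes. Bag3, an inducible Hsp70 nucleotide exchange factor, had 13.8, 17.4, 53.4 and 34.5 CPM in top and 31.2, 32.3, 118 and 95.3 CPM in bottom, with a log2 difference of 1.15 (SE 0.34, edgeR adjusted p = 0.246). As for Dnajb1, bottom was above top within each batch and the batch 2 bottom libraries were the highest. Cct3, a subunit of the cytosolic chaperonin TRiC, had 129, 122, 135 and 132 CPM in top and 40.9, 65.8, 86.5 and 92.8 CPM in bottom. Bottom lay below top without overlap, with a log2 difference of -0.91 (SE 0.29, edgeR adjusted p = 0.297). Bag2, an inhibitor of the Hsp70-linked ubiquitin ligase Stub1, had 24.0, 21.0, 12.2 and 25.3 CPM in top and 2.29, 6.45, 4.32 and 13.9 CPM in bottom, with a log2 difference of -1.70 (SE 0.76, edgeR adjusted p = 0.491).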

How the data were processed

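RNA was measured by sequencing in 8 libraries of sorted NOD pancreas cells labelled as beta cells, 4 top and 4 bottom, 2 of each in each of 2 labelled batches. The authors deposited expected counts, which RSEM estimates by dividing reads that match several genes; the submitters' processing notes name RSEM, edgeR and mm9, without versions or roles. The deposited per-library and series tables were identical. Of the values, 34.8% were not whole, and all were rounded.

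The members, gene lists and tests were chosen with earlier results of these data known. Gene symbols are those of the tables. With edgeR 4.0.16 in R 4.3.3, counts were scaled by TMM, genes with low counts were left out by filterByExpr (population as group), and 11721 genes were kept, with at least 98.01% of each library's counts. The common biological coefficient of variation was 0.806. Quasi-likelihood tests were made of bottom against top with the batch as covariate, batch 2 with batch 1 in the same fit, and their interaction in a fit of its own. Each SE given was derived as the absolute log2 fold change divided by the square root of the test's F value. P-values were adjusted by Benjamini-Hochberg over all genes tested and called under 0.05, and a positive log2 fold change means higher in bottom, or in batch 2. DESeq2 1.42.0, limma 3.58.1 (trend, prior count 2), RLE scaling, scaling without hormone genes, no filter, no batch term, a replicate block, single batches and leaving out each library were alternatives. Of these, the within-batch values with a shared spread, all alternatives for the interaction and the co-chaperones, and some for the sums were added after the data were seen. The bottom against top fits of edgeR, DESeq2 and limma were run on simulated data without a batch difference. Those data do not cover the tests between batches or of the interaction.

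Genes named were those called, a list of classical chaperones and Hsf1, the 6 largest differences in each direction, the 4 largest batch differences, members whose populations did not overlap and the 3 co-chaperones with the smallest p; others were named after their values were seen. Total counts of 6657639 to 11262368 per library and the spread between libraries set the precision. Intervals and floors cover counting error only, since amplified reads are not independent molecules. The counting is not stated to use strand, so reads from antisense partners were not separated. Promoter sequences came from RefSeq (GRCm38.p6), not the authors' build, and were searched with Python 3.11.15.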

Additional observations from a re-analysis of the deposited data

Results flagged for a closer look

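In 3 groups of 4 libraries 1 library stood apart from the other 3 by Dixon's 95% criterion, among 56 groups of named genes tested, and chance alone sets apart about 1 in 20. Dnajc22 had 92.2 CPM in bottom 1, where the other bottom libraries reached at most 6.64 CPM. Hspa12a had 110 CPM in top 4, where the other top libraries reached at most 36.5 CPM. Hspb6 had 0.211 CPM in bottom 3, from 2 counts, where the other bottom libraries had 0. With those at 0, any count in bottom 3 passes the criterion, so the rate of 1 in 20 does not apply to this flag.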

How the results depend on the processing

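The number of members called higher in bottom was 1 in edgeR and 3 with DESeq2, and it was 0 within batch 1 and within batch 2 with a shared spread, in batch 1 alone, in batch 2 alone and without a batch term, and it ranged from 0 to 1 when each library was left out in turn. With the replicate block, where 0% of all genes were called, it was also 0, with a log2 fold change of 1.47 for Dnajb1 (edgeR adjusted p = 0.696). The labels do not say what the numbers mark. Deviations of same-numbered libraries correlated at 0.0926 (top 1 with bottom 1) and -0.00134 (top 3 with bottom 3). With 1 such pair in each batch, these values cannot decide whether the numbers pair the libraries. The number called lower was 0 in edgeR, 3 with DESeq2, and 1 with limma-trend and without the low-count filter (Hspb6 in both). Between batches 0 members were called higher in edgeR, 8 with DESeq2 and 3 without the filter (Dnaja1, Dnajb1 and Hsph1). For the interaction these numbers were 0, 1 and 1 (Dnajc28 in both), and of the co-chaperones DESeq2 called 1 higher, Bag3. No call between batches or for the interaction appeared when a library was left out.

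Dnajb1 kept its direction under all 20 alternatives and its call under 7, with a log2 fold change of 1.37 without a batch term (edgeR adjusted p = 0.303), 1.18 in batch 1 alone (edgeR adjusted p = 0.325) and 1.45 in batch 2 alone (edgeR adjusted p = 0.199). Of 742 alternative values of 43 named differences, 693 kept their direction and side of the threshold, 18 passed it, 13 lost it and 18 reversed, all 18 among differences that had not passed. In batch 1 with a shared spread and in batch 1 alone the values were -0.027 and -0.049 for Hspa1a, -0.25 and -0.28 for Hspa1b, -0.40 and -0.42 for Hsph1, -0.12 and -0.14 for Hspe1, -0.082 and -0.11 for Hspa9 and -0.35 and -0.38 for Dnajc2. Dnajb14 was at 0.18 and 0.19 in batch 2. Leaving out 1 library gave -0.0098 to 0.51 for Hsph1, -0.0060 to 1.48 for Dnajc2 and, between batches, -0.16 to 0.082 for Hspa9 (0.074 without top 2 and 0.082 without top 4). The cause was not tested. The ratio of summed levels ran from 1.20 to 1.53 when each library was left out, and RLE scaling moved the median of all genes by 0.051 on the log2 scale. Dnajb3 had 75 counts in all and a standard error of 1.32 on the log2 scale, and even its difference of -2.80 was not called (edgeR adjusted p = 0.520).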
